A study of Mus musculus with 9 samples.

Results

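The glycolysis and hypoxia response genes are a set of 36 mouse genes: the enzymes that turn glucose into lactate, and genes that cells induce when oxygen is short together with the proteins that sense oxygen. They were chosen by gene symbol. A member was counted as measured where at least 1 probe set of the array carries its symbol and no other, which held for 32 of the 36 members and for 41 probe sets, among 19938 genes and 21789 probe sets with a single symbol. Of the 20 glycolytic members 16 were measured, and of the other 16 members all were. Gapdh was present only on probe sets that carry several symbols, and Gpi1, Eno1 and Pfkfb1 on none with their symbol alone, so these 4 were not analysed here.

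The RNA came from CXCL12-abundant reticular (CAR) cells, the stromal cells of bone marrow that make most of its Cxcl12. All mice were Cxcl12+/gfp, with green fluorescent protein in place of 1 copy of Cxcl12, and the sort took marrow cells that lacked blood lineage markers and were bright in GFP. In the G-CSF group (5 arrays) mice had received granulocyte colony-stimulating factor at 250 µg/kg per day for 5 days. In the PBS group (4 arrays) mice had received phosphate-buffered saline for 5 days. Age and sex, and the animals or pools behind each array, are not given in the sources used here, so the p-values reflect only how these arrays spread, which may be technical in part. The source names of the samples speak of pre-B colonies and, for 4 arrays, of an Hspa9 genotype. Titles, treatments and protocols contradict this, and groups follow the titles. The comparison asks how G-CSF, which mobilises blood stem cells and lowers B cell production in marrow, changes the stromal cells. Levels are log2 RMA intensities, which rank arrays for 1 gene but do not compare genes with each other. A change is the G-CSF mean minus the PBS mean of the log2 levels. Its standard error (SE) or 95% interval comes from limma. A gene rose or fell where its Benjamini-Hochberg adjusted p over all 21789 probe sets was under 0.05.

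Glycolysis splits glucose into pyruvate with a net gain of ATP, and lactate dehydrogenase can then reduce pyruvate to lactate, which keeps the pathway running without oxygen. The hypoxia-inducible factors (HIF) are transcription factors whose alpha subunits, Hif1a and Epas1, are hydroxylated by the Egln enzymes when oxygen is present, bound by Vhl and degraded. When oxygen falls, the alpha subunits persist, bind DNA with their partner Arnt at a short ACGTG or GCGTG core and induce genes of glycolysis, blood flow, acid balance and mitochondrial turnover. Control of the HIF proteins is largely by their breakdown, which transcript levels do not measure. Bone marrow is a tissue of low oxygen.

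After G-CSF, transcripts of Pkm (pyruvate kinase, which forms pyruvate in the last step that yields ATP) and Pfkfb3 (which makes the main activator of phosphofructokinase) rose in the sorted stromal cells, 2.14-fold and 1.68-fold. Of the 16 measured glycolytic members, 2 rose, 0 fell and 14 did not pass. Of the 16 hypoxia members, 0 rose and 0 fell in limma. At an unadjusted p under 0.05, 4 were higher (25%) and 0 lower, where 4.37% and 4.91% of all genes were. Over both groups of members, 2 of 32 rose (6.25%), where 0.777% of all genes rose and 0.928% fell (1.71% changed). By probe set, 1.62% of those tested changed, 0.743% upward and 0.877% downward. Calls were denser among brighter probe sets: in a fit on the 10895 brighter ones alone, 155 rose and 184 fell. That fit held 25 of the 32 members, of which 3 rose, so the shares over all genes are a low baseline for the members. The median change was 0.35 over the glycolytic members and 0.18 over the hypoxia members, beside 0.01 over all genes tested. Changes were positive for 26 of the 32 members (81.3%), 15 of them glycolytic, where 51.2% of all genes had a positive change. In size, 25 of the 32 changes were under 0.5.

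The plot of changes by role shows that most members lie a little to the right of 0 with intervals that reach it. The interval spanned 0 for 22 of the 32 members, so for these the data bound a change rather than show one.

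**Figure D1:**
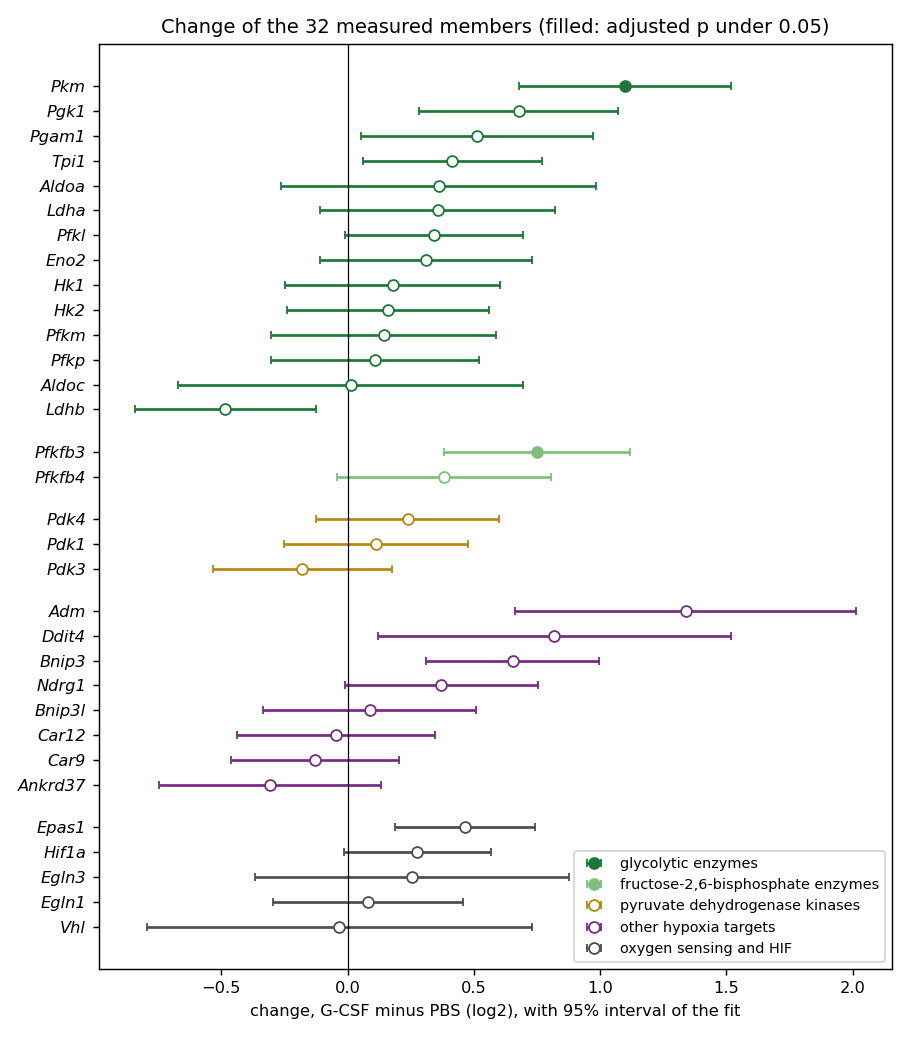
Change of each of the 32 measured members, G-CSF minus PBS in log2 (horizontal axis), with the limma 95% interval from a fit on 5 G-CSF and 4 PBS arrays, grouped by role. Filled circles mark the 2 members past an adjusted p of 0.05, Pkm and Pfkfb3; open circles mark the 30 others, of which Ldhb is the lowest at -0.48 and Adm the highest at 1.34.

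Pkm was at 8.81, 8.28, 8.55, 8.20 and 8.07 in the G-CSF arrays (replicates 1 to 5), against 7.45, 7.62, 6.94 and 7.11 in the PBS arrays (replicates 1 to 4). Every G-CSF array lay above every PBS array. The means were 8.38 ± 0.30 (SD, n = 5) after G-CSF and 7.28 ± 0.31 (n = 4) after PBS, a change of 1.10 (SE 0.19, 95% interval 0.68 to 1.52, limma adjusted p = 0.0125). A dimmer probe set of Pkm, which the platform table ties to no RefSeq transcript, also rose, by 0.67 (limma adjusted p = 0.0444), again with no overlap of the groups. The gene makes several splice forms of the enzyme that differ in activity, and a single value per probe set does not tell them apart.

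Pfkfb3 was at 7.67, 7.45, 7.53, 8.10 and 7.99 in the G-CSF arrays and at 6.90, 6.99, 6.86 and 7.24 in the PBS arrays, without overlap. Its change was 0.75 (SE 0.17, 95% interval 0.38 to 1.12, limma adjusted p = 0.0485), close to the threshold. The call depended on the full set of arrays: dropping any single array other than G-CSF replicate 2 ended it (8 of 9 fits), and the highest limma adjusted p was 0.138, with PBS replicate 1 dropped. Several other processing choices also ended the call. The related Pfkfb4, another enzyme of the same kind, had a change of 0.38 (95% interval -0.04 to 0.81).

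**Figure D2:**
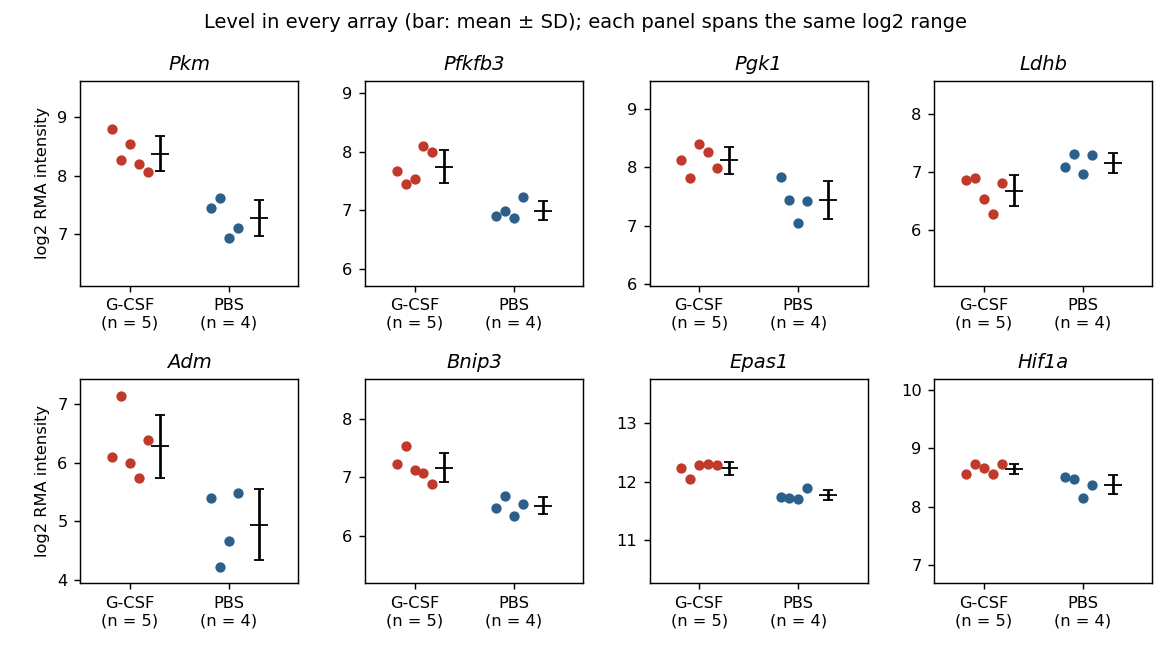
Level of 8 members in every array, in log2 RMA intensity (vertical axis, the same span in each panel), with G-CSF arrays (red, n = 5) left of PBS arrays (blue, n = 4); the bar is the mean ± SD. The groups do not overlap for Pkm, Pfkfb3, Adm, Bnip3, Epas1 and Hif1a, where G-CSF is higher, nor for Ldhb, where it is lower, while for Pgk1 PBS replicate 1 reaches the G-CSF arrays.

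The start-proximal sequence of Pkm and Pfkfb3 is shown because they are the members that rose and because HIF binding cores in such sequence are how glycolytic genes are known to respond to low oxygen. Each stretch is the 250 bases before a transcript start in RefSeq (build GRCm38.p6), 5′ to 3′ on the gene's strand, and capitals mark ACGTG or GCGTG on either strand. CACGTG, which other transcription factors also bind, reads as ACGTG on both strands. Pkm (chr9:59656977-59657226, plus strand) holds a single match, 75 bases before the start. The window of the other Pkm start in the table (chr9:59656326-59656625, plus strand) holds 0 matches and is not printed. The first Pfkfb3 stretch (chr2:11502091-11502340, minus strand) holds a GCGTG at 122 bases and a CACGTG at 53 bases before the start, and the second (chr2:11553930-11554179, minus strand) an ACGTG at 60 bases.
Pkm: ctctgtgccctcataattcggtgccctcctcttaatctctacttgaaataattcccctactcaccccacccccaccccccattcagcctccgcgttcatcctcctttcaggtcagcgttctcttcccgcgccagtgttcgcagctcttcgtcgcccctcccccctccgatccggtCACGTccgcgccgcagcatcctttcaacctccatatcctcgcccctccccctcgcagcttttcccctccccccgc
Pfkfb3, first start: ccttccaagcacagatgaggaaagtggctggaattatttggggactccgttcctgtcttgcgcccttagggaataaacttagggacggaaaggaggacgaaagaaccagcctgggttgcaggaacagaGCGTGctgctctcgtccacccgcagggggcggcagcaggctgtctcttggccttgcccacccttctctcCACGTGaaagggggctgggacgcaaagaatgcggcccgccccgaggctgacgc
Pfkfb3, second start: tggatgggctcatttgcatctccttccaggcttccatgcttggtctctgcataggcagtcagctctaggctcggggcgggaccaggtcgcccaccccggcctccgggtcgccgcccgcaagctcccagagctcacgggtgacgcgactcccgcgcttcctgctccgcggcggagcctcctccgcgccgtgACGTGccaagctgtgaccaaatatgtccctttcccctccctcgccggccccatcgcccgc

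Such matches were common among the members whatever their change. Of the 33 listed members with an entry in the promoter table (all but Bnip3l, Ndrg1 and Epas1), 28 (84.8%) held ACGTG or GCGTG on either strand in at least 1 window running from 250 bases before to 50 after a start, beside 46.7% of 27025 genes. Counted by window, 36 of 49 windows of members (73.5%) and 43.8% of 32851 windows held a match. The windows of members were also richer in G and C (median 60.3%, against 52.7% over all windows) and in CG pairs (median 20, against 7), which both motifs contain. A match describes letters only and shows no binding.

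Phosphoglycerate kinase (Pgk1), which catalyses the first ATP-yielding step, was at 8.13, 7.82, 8.40, 8.27 and 7.98 after G-CSF and at 7.84, 7.44, 7.06 and 7.43 after PBS. Only PBS replicate 1 reached into the G-CSF range. The change of 0.68 (95% interval 0.28 to 1.07) did not pass in limma (adjusted p = 0.109). Pgk1 has 3 probe sets, of which 2 hold the same values. The remaining one had a change of 0.63 without overlap of the groups, and did not pass either (limma adjusted p = 0.108). Triose phosphate isomerase (Tpi1), which interconverts the products of the split sugar, was at 8.09, 7.96, 7.47, 7.83 and 7.60 after G-CSF and at 7.57, 7.39, 7.16 and 7.37 after PBS. Its change of 0.42 (95% interval 0.06 to 0.77) did not pass either (limma adjusted p = 0.391).

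The lactate dehydrogenase subunits had changes of opposite sign, and neither passed. Ldhb, the heart-type subunit, was at 6.86, 6.90, 6.53, 6.28 and 6.81 after G-CSF and at 7.08, 7.30, 6.96 and 7.30 after PBS. All G-CSF arrays lay below all PBS arrays, and the change was -0.48 (95% interval -0.84 to -0.12, limma adjusted p = 0.269). Its other probe set had a change of -0.57, with overlap. Ldha, the muscle-type subunit, was at 8.23, 7.83, 7.56, 8.63 and 8.21 after G-CSF and at 8.01, 7.48, 7.57 and 7.87 after PBS, with overlap (change 0.36, 95% interval -0.11 to 0.82, limma adjusted p = 0.741). The difference between the changes of the subunits was not tested.

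The remaining glycolytic enzymes gave small positive changes with overlapping groups. Phosphoglycerate mutase (Pgam1) had a change of 0.51 (95% interval 0.05 to 0.97, limma adjusted p = 0.445). The aldolases Aldoa and Aldoc, which split the sugar, were at 0.36 and 0.01, and neuronal enolase (Eno2) at 0.31. The phosphofructokinases Pfkl, Pfkm and Pfkp, which commit sugar to the pathway, were at 0.34, 0.14 and 0.11. The hexokinases Hk1 and Hk2, which trap glucose in the cell, were at 0.18 and 0.16. For Hk1 the brighter probe set rests on a sequence record that the platform table also ties to the ribosomal protein gene Rpl17, so its identity is uncertain; the Hk1 probe set with a RefSeq transcript had a change of 0.13.

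Of the hypoxia targets, adrenomedullin (Adm), a secreted peptide that widens blood vessels, had a change of 1.34, the largest of any member (SE 0.31, 95% interval 0.66 to 2.02). It was at 6.10, 7.15, 6.0, 5.75 and 6.40 after G-CSF and at 5.40, 4.22, 4.66 and 5.48 after PBS. The groups did not overlap, but each spread over more than 1 log2 unit, and the change fell short of the threshold (limma adjusted p = 0.0555). Bnip3, a mitochondrial membrane protein that marks mitochondria for removal, was at 7.23, 7.54, 7.12, 7.07 and 6.88 after G-CSF and at 6.49, 6.69, 6.34 and 6.55 after PBS. Its groups did not overlap either, and its change of 0.65 (95% interval 0.31 to 1.00) was also short of the threshold (limma adjusted p = 0.0690). The dimmer Bnip3 probe set had a change of 0.47 with overlap.

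Ddit4, an inhibitor of the growth kinase complex mTORC1, was at 8.75, 8.10, 7.36, 8.07 and 7.81 after G-CSF and at 8.23, 6.86, 6.81 and 6.89 after PBS. PBS replicate 1 stood more than 1 log2 unit above the other PBS arrays, and the change of 0.82 (limma adjusted p = 0.394) was 1.16 without that array (limma adjusted p = 0.0663). Ndrg1, a stress-induced cytoplasmic protein, was at 7.88, 7.34, 7.45, 7.82 and 7.84 after G-CSF and at 7.32, 6.92, 7.40 and 7.54 after PBS (change 0.37, limma adjusted p = 0.568).

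The intervals of the other hypoxia targets spanned 0. Ankrd37 was at -0.31 (95% interval -0.75 to 0.13), and the surface carbonic anhydrases Car9 and Car12, which balance acid outside the cell, were at -0.13 (95% interval -0.46 to 0.21) and -0.05 (95% interval -0.44 to 0.34). Bnip3l, a relative of Bnip3 that is also needed in red cell precursors, was at 0.09 (95% interval -0.33 to 0.51). The pyruvate dehydrogenase kinases, which inhibit pyruvate dehydrogenase, did not pass either. Pdk4 was at 8.55, 9.05, 8.92, 8.49 and 8.85 after G-CSF and at 8.82, 8.34, 8.57 and 8.41 after PBS, with overlap (change 0.24, 95% interval -0.12 to 0.60). Pdk1 was at 0.11 and Pdk3 at -0.18.

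Among the oxygen-sensing genes, both HIF alpha subunits lay above PBS in every G-CSF array, by small amounts that did not pass. Epas1, which encodes HIF-2 alpha, was at 12.24, 12.04, 12.29, 12.31 and 12.29 after G-CSF and at 11.74, 11.73, 11.71 and 11.89 after PBS, a change of 0.47 (SE 0.13, 95% interval 0.19 to 0.74, limma adjusted p = 0.124). Hif1a was at 8.56, 8.73, 8.66, 8.57 and 8.73 after G-CSF and at 8.51, 8.47, 8.15 and 8.37 after PBS, a change of 0.28 (95% interval -0.01 to 0.57, limma adjusted p = 0.581). Vhl was at 7.02, 7.11, 6.20, 6.10 and 6.0 after G-CSF and at 7.28, 7.03, 6.14 and 5.61 after PBS. Its spread ran within both groups, and the change was -0.03 (95% interval -0.79 to 0.73). The hydroxylases Egln1 and Egln3, themselves HIF targets, were at 0.08 and 0.25 with overlap.

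Over all 32 members, the G-CSF arrays lay wholly above the PBS arrays for 6 (18.8%: Pkm, Pfkfb3, Adm, Bnip3, Epas1 and Hif1a), where 2.23% of all genes did so. They lay wholly below for 1 (Ldhb, 3.13%), against 2.57% of all genes (4.8% in either direction). At an unadjusted p under 0.05, 9 members were higher and 1 lower (28.1% and 3.13%), against 4.37% and 4.91% of all genes (9.28% in both). The members were chosen with earlier results of these data known, so these shares describe them and test nothing.

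**Figure D3:**
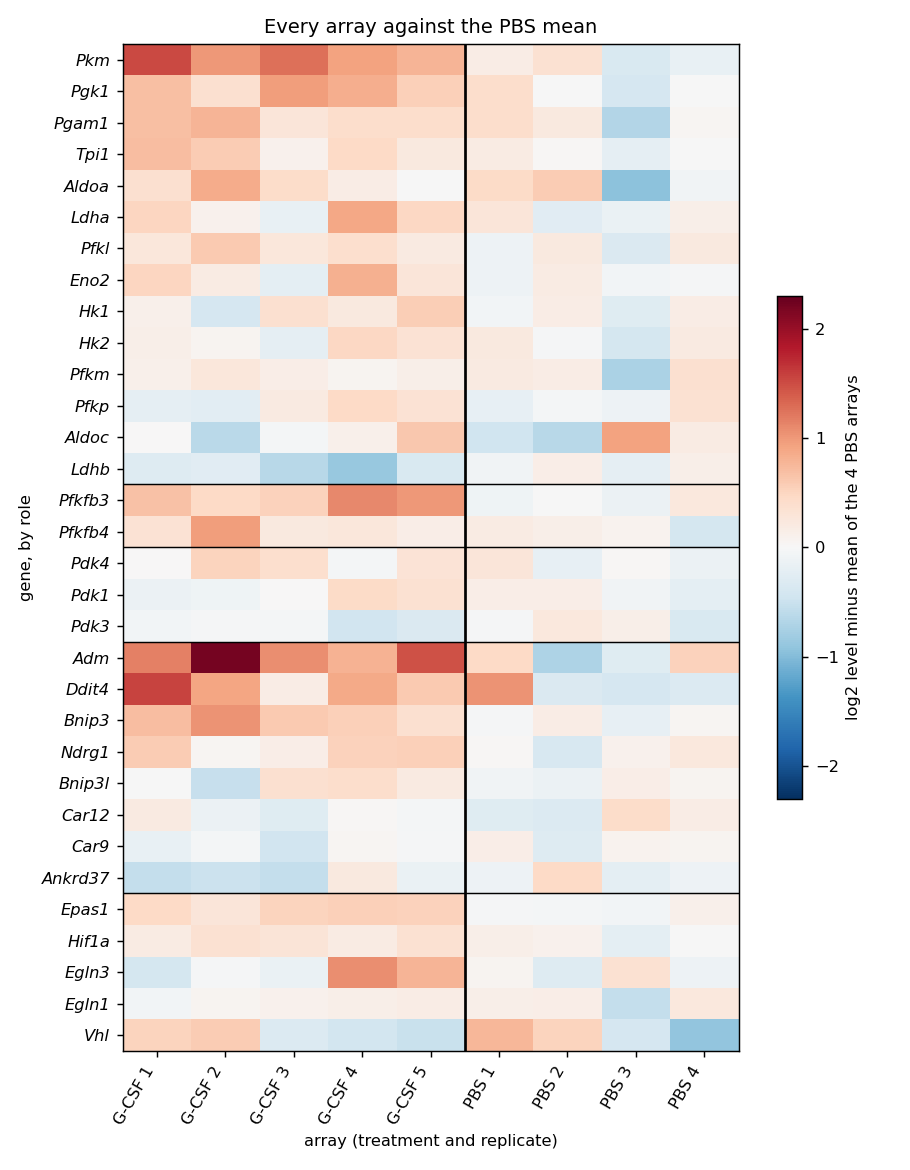
Level of each measured member (rows, by role) in every array (columns, 5 G-CSF arrays left of 4 PBS arrays), as log2 level minus the mean of the 4 PBS arrays; red is higher and blue lower. Rows that are red across all G-CSF columns include those of Pkm, Pfkfb3, Pgk1, Pgam1, Adm, Bnip3, Epas1 and Hif1a, and PBS replicate 3 is blue in most glycolytic rows.

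The arrays fall into 2 sets that the labels do not name, split on the first principal component (34.9% of the variance): G-CSF replicates 1 to 3 with PBS replicates 1 and 2 (set 1), and G-CSF replicates 4 and 5 with PBS replicates 3 and 4 (set 2). PBS replicate 3 stood apart, with the narrowest spread of values (interquartile range 2.45, against 2.71 to 2.99 in the other arrays). It was the lowest of the 9 arrays for 9 of the 16 glycolytic members and for 5 of the 16 hypoxia members, Aldoa at 8.48 and Pgam1 at 6.22 among them. Without it the median change was 0.29 for the glycolytic members. Without it the change of Aldoa was 0.04 and that of Pgam1 0.29, and 6 of the 16 glycolytic members had a change over 1.5 times smaller or of the other sign (Hk1, Hk2, Pfkp, Pfkm, Aldoa and Pgam1). Pkm passed without it (change 0.99, limma adjusted p = 0.0321), and Pfkfb3 did not (0.71, limma adjusted p = 0.101).

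With the set as a block, 4 members rose and 0 fell (12.5%). Of all genes, 1.36% rose and 1.49% fell in this fit (2.85% in all). Bnip3 (limma adjusted p = 0.0291) and Adm (0.0464) joined Pkm (0.00136) and Pfkfb3 (0.00895). The sets were drawn from the same values that this fit tests, so its adjusted p can be too small. Within sets, Pkm was higher by 1.01 in set 1 and by 1.11 in set 2, and Pfkfb3 by 0.61 and 0.99. In either set alone 0 members changed in limma, where 0.948% of all genes changed in set 1 (0.326% rose, 0.622% fell) and 0.286% in set 2 (0.181% rose, 0.105% fell). Adm was higher by 1.61 and 1.00, Bnip3 by 0.71 and 0.53, and Epas1 by 0.45 and 0.50. The change was positive in both sets for 19 of the 32 members, negative in both for 3 (Ldhb, Pdk3 and Car9), and of opposite sign for 10. Of the 16 glycolytic members, 14 had the larger value in set 2, which holds PBS replicate 3, and their median change was 0.48 within set 2, against 0.20 within set 1.

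**Figure D4:**
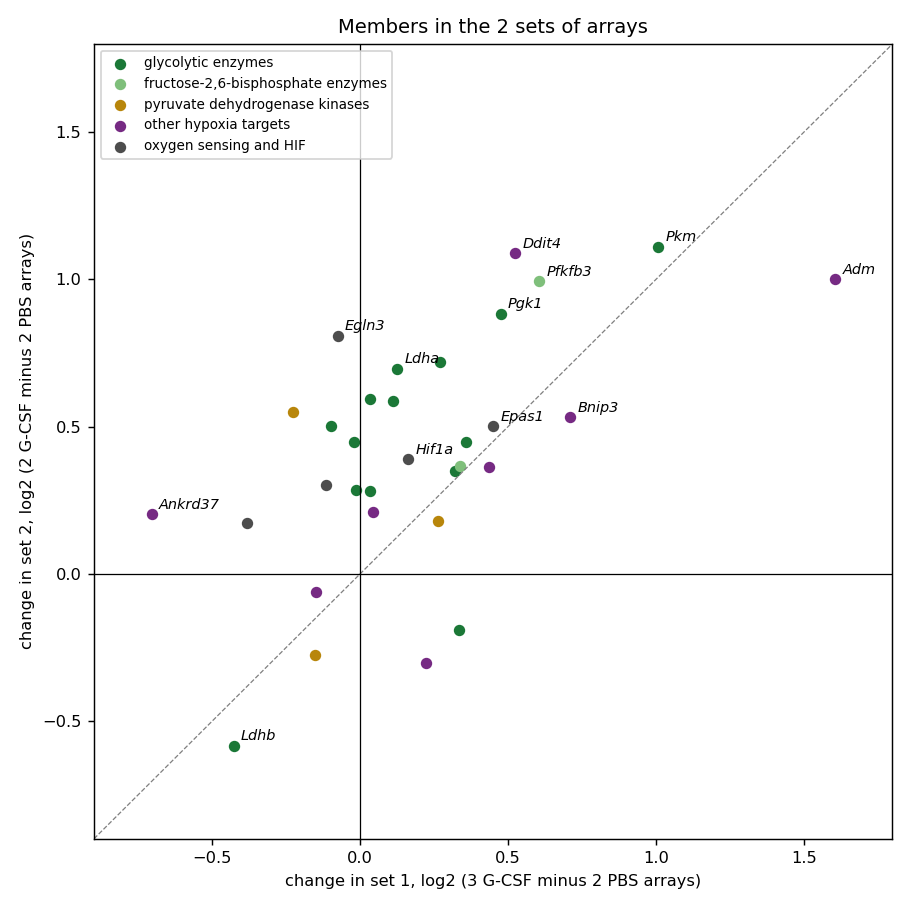
Change of each measured member in set 1 (horizontal axis, 3 G-CSF minus 2 PBS arrays) and in set 2 (vertical axis, 2 G-CSF minus 2 PBS arrays), both in log2, with the line of equal change dashed. Pkm, Pfkfb3, Pgk1, Adm, Bnip3, Ddit4 and Epas1 lie where both sets are positive, Ldhb where both are negative, and most glycolytic members above the dashed line.

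Other genes of these pathways, from lists that are not part of the 36, were called in few cases. Over all genes, 0.777% rose and 0.928% fell, and 4.37% were higher and 4.91% lower at an unadjusted p under 0.05. Of 22 measured genes of glucose entry and remaining glycolytic isoenzymes, 0 rose and 0 fell in limma, with 1 higher and 1 lower at an unadjusted p under 0.05. The glucose transporter Slc2a3 had a change of 0.36 (limma adjusted p = 0.384), the insulin-responsive transporter Slc2a4 -0.40 (0.373) and the kinase Adpgk 0.38 (0.655). Of 13 genes of pyruvate transport, pyruvate use and lactate use, 0 rose and 0 fell, with 1 higher and 1 lower at an unadjusted p under 0.05. The pyruvate carrier subunit Mpc1 was at 0.54 (limma adjusted p = 0.356), Pdk2 at -0.41 (0.428) and malic enzyme Me1 at -0.53 (0.645). Of 12 further HIF pathway components, 0 rose and 0 fell, and 0 were past an unadjusted p of 0.05. Those with the smallest p were Hif3a at -0.23, Usp33 at -0.26 and Arnt at -0.16 (limma adjusted p of 0.765, 0.782 and 0.879).

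Of 37 measured further hypoxia targets, 1 rose, 2 fell and 34 did not pass, with a median change of 0.01 (of all genes, 0.777% rose and 0.928% fell). At an unadjusted p under 0.05, 5 were higher and 9 lower, where 4.37% and 4.91% of all genes were. The transcriptional repressor Bhlhe40 rose 3.26-fold, to 7.82 ± 0.57 after G-CSF (n = 5), against 6.12 ± 0.38 after PBS (n = 4; limma adjusted p = 0.00837). Heme oxygenase Hmox1 fell by 0.99, to 8.11 ± 0.13 after G-CSF against 9.10 ± 0.51 after PBS (limma adjusted p = 0.0374). The transferrin receptor Tfrc fell by 0.79, to 4.84 ± 0.18 after G-CSF against 5.62 ± 0.31 after PBS (limma adjusted p = 0.0395). These genes are also induced by signals other than hypoxia, Hmox1 by heme and Tfrc by iron shortage.

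Of 9 CAR cell markers 4 fell (Kitl, Ebf3, Vcam1 and Adipoq) and 0 rose, where 0.928% of all genes fell and 0.777% rose. Cxcl12 itself was at 11.99 ± 0.07 after G-CSF and 12.35 ± 0.11 after PBS. All 14 neutrophil markers had a positive change, 2 rose (Mmp9 and Csf3r) and 9 were higher at an unadjusted p under 0.05. Of all genes, 51.2% had a positive change and 4.37% were higher at that unadjusted p. Their median change was 0.96, from 0.15 for Ly6g to 1.64 for Mmp9, and their mean level ran from 8.70 to 9.50 over the G-CSF arrays and from 7.81 to 9.21 over the PBS arrays. Neutrophils are glycolytic cells, and the part of their RNA in the rises of Pkm and Pfkfb3 was not tested.

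All 6 erythroid and all 8 B cell precursor markers had a negative change. In each list 1 fell in limma, where 0.928% of all genes fell, and 3 and 5 were lower at an unadjusted p under 0.05. Of all genes, 4.37% were higher and 4.91% lower at that level. The mean over 6 erythroid markers ran from 4.57 to 5.09 over the G-CSF arrays and from 5.17 to 6.22 over the PBS arrays, where the 1 that fell was Car1 (change -3.57). Over the other 5 the means were 4.81 to 5.31 after G-CSF and 5.27 to 5.73 after PBS, which overlap. The mean over 8 B cell precursor markers ran from 4.41 to 4.85 after G-CSF and from 4.93 to 5.32 after PBS, where the 1 that fell was Cd79a (change -1.08). Over the other 7 the means were 4.56 to 5.01 after G-CSF and 4.94 to 5.53 after PBS, which also overlap. Of 9 macrophage and 10 endothelial markers, 0 rose and 0 fell in limma, with 2 lower macrophage markers and 1 higher and 1 lower endothelial marker at an unadjusted p under 0.05. Macrophage markers averaged 5.54 ± 0.14 after G-CSF and 5.72 ± 0.27 after PBS, and endothelial markers 4.73 ± 0.08 and 4.81 ± 0.14. In sorted bulk samples, a change in the share of a cell type and a change in RNA per cell cannot be told apart.

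The plot of adjusted p over the alternatives shows how far each leading call depends on the processing and on single arrays. Pkm stayed past the threshold in all 9 fits that left out 1 array, at adjusted p of 0.0146 to 0.0476, and lost its call in 3 other alternatives: within either array set, and when all probe sets of the array were adjusted together (limma adjusted p = 0.0541). Pfkfb3 kept its call in 7 of 22 alternatives and lost it in 15. Processing choices that ended it included further quantile normalization (limma adjusted p = 0.0675) and trend and robust settings (0.0566). The replicate block (limma adjusted p = 0.120) and all probe sets adjusted together (0.128) also ended it. Adm and Bnip3 passed in none of the 9 fits that left out 1 array.

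**Figure D5:**
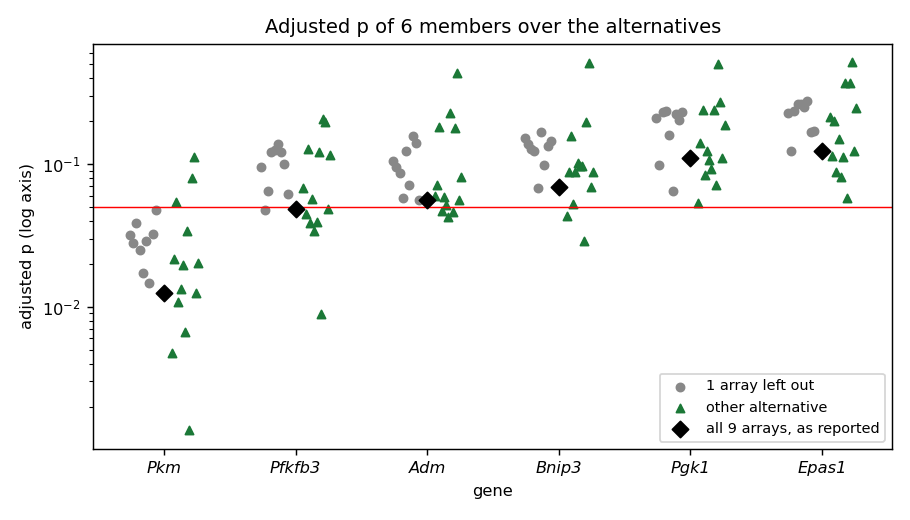
Adjusted p (vertical log axis) of 6 members over the fits that left out 1 array (grey circles), the other alternatives (green triangles) and the fit on all 9 arrays (black diamonds), with the threshold of 0.05 as a red line. The grey circles of Pkm all lie below the line, those of Pfkfb3 straddle it with 1 below, and those of Adm, Bnip3, Pgk1 and Epas1 all lie above it.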

How the data were processed

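The values are those of 9 Affymetrix mouse gene arrays, with RNA amplified and biotin-labelled by NuGEN kits per the labels' protocols. RMA in Expression Console produced the deposited intensity values, per the submitters' processing notes. Versions and genome build are not given in the sources used here. They ran from 1.73 to 15673.1, a linear scale, so log2 was taken before any test. RMA equalises arrays, so changes are relative to other transcripts, and it gives no detection call.

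Of 35553 probe sets, 21789 with 1 symbol were tested, while 1621 with several and 12143 with none were left out. Genes with several probe sets are given by the brightest. limma 3.58.1 in R 4.3.3 (lmFit, eBayes) compared 5 G-CSF with 4 PBS arrays, without covariates. Steps were tested on simulated data, where the fit recovered 2 of 50 genes with a log2 change of 0.5 and 28 of 50 with a change of 1. Replicate numbers were not taken as pairs. Deviations of same-numbered arrays correlated at 0.28, 0.14, -0.28 and 0.35 (replicates 1 to 4). Only the arrays of replicate 3 lie in different array sets, so these values cannot settle whether arrays were paired. Array by array values are given for members past the threshold, the 5 smallest p among glycolytic and among hypoxia members, members without overlap, and Hif1a, Epas1, Vhl, Ldha and Pdk4. In the wider lists, genes past the threshold and the 3 smallest p are named; others were chosen after their values were seen. Members and lists were chosen with earlier results of these data known. The number of arrays limits the precision. Alternatives are given in the closing section.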

Additional observations from a re-analysis of the deposited data

Results flagged for a closer look

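Among 64 groups of member values (32 members, 2 treatments), 5 held an array set apart from the rest of its group by most of the group's range. About 1 group in 20 does so by chance. Ddit4 was at 8.23 in PBS replicate 1, with the next PBS array at 6.89. Ankrd37 was at 6.14 in PBS replicate 2, with the next at 5.57. Egln1 was at 6.52 in PBS replicate 3, with the next at 7.20. Pfkfb4 was at 6.50 in G-CSF replicate 2, with the next at 5.88, and Epas1 was at 12.04 in the same array, with the next at 12.24.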

How the results depend on the processing

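On all 9 arrays, 353 probe sets and 2 members changed, both members glycolytic. All probe sets adjusted together gave 163 probe sets and 0 members. The replicate block, which gives G-CSF replicate 5 no partner, gave 180 probe sets and 1 member (glycolytic; Pkm). The array set as a block, a split drawn from the same values, gave 598 probe sets and 4 members (2 hypoxia). Sets 1 and 2 alone gave 202 and 59 probe sets and 0 members each. Trend and robust settings gave 324 probe sets and 1 member (glycolytic). Averaging G-CSF replicates 4 and 5 also gave 1 glycolytic member. A further quantile normalization gave 370 probe sets, with 1 glycolytic (Pkm) and 1 hypoxia member (Bnip3). Brighter probe sets only (339 of 10895 changed) gave 1 hypoxia member (Adm) beside both glycolytic ones. So did a mean over probe sets (373 of 19938 genes changed). An adjusted p under 0.1 gave 4 members (2 hypoxia). This looser threshold lets more probe sets pass throughout, so its count is no gain particular to the members. Leaving out 1 array gave 210 to 318 probe sets and 1 to 2 members, all glycolytic; the lowest counts were 210 with PBS replicate 1 dropped, and 222 and 224 with G-CSF replicate 1 or 4 dropped. Median changes ran from 0.20 to 0.48 (glycolytic) and 0.06 (without G-CSF replicate 4) to 0.33 (hypoxia). Of 697 member values under alternatives, 642 kept sign and call and 32 turned sign, in 10 members with changes of at most 0.31. Within set 1 these were Hk1 (-0.020), Hk2 (-0.10), Pfkm (-0.014), Pdk1 (-0.23), Car12 (0.22), Egln1 (-0.12) and Egln3 (-0.076), and within set 2 Aldoc (-0.19), Ankrd37 (0.20) and Vhl (0.17). With array weights they were Pfkm (-0.0087), Car12 (0.078) and Egln1 (-0.019). Aldoc was at -0.019 after quantile normalization, -0.14 with the replicate block and -0.075 with replicates 4 and 5 averaged, and Vhl at 0.089 and 0.077 under the last 2. With 1 array left out, Aldoc ran from -0.20 to 0.32, Vhl from -0.33 to 0.22, Pfkm from -0.10 to 0.26, Car12 from -0.15 to 0.092 and Egln1 from -0.10 to 0.16. The causes were not tested. Averaging replicates 4 and 5 (the closest pair of arrays) and a rule that keeps probe sets with a RefSeq transcript were chosen after seeing data; that rule kept both calls, Pkm and Pfkfb3.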
